A study of Homo sapiens with 8 samples.

Results

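The genes encoding collagen chains, laminin chains and integrin subunits were followed across RNA-seq libraries of H9, a human embryonic stem cell (hESC) line. Members were all protein-coding genes whose symbol is COL, a number, A and a number; LAMA, LAMB or LAMC and a number; or ITGA or ITGB and a number or letter. The rule took 82 of the 57773 genes in the count files: 44 collagen, 12 laminin, 18 integrin alpha and 8 integrin beta genes. Of these, 72 had enough reads to be tested. The study had 4 groups of 2 libraries each. WT cells carried an HA tag on endogenous CHD7, a chromatin remodeler, and were untreated. HERVH knockdown cells had the same tagged genotype and were treated for 24 h with LNA-GapmeRs, antisense oligonucleotides that lead to cleavage of the RNA they pair with, here RNA of the HERVH family of endogenous retroviruses. CHD7 knockout cells were labelled CHD7 -/-, and HERVH element deleted cells lacked 1 HERVH copy on chromosome 2. For these last 2 groups the labels do not state whether the tag was present. All cells grew on Geltrex, a basement membrane extract. The knockdown cells were, per the study's methods, dissociated to single cells, reseeded with a ROCK inhibitor and transfected with lipid, whereas the WT libraries are labelled untreated rather than given a control oligonucleotide. Handling and loss of HERVH RNA therefore cannot be told apart in that comparison. The edited lines were grown from picked colonies. The labels do not state whether the 2 libraries of a group came from separate clones or cultures. P-values thus measure the spread between these libraries, which may be technical. In both edited groups, the effect of the edit and differences between clones cannot be told apart.

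Collagens are trimers of alpha chains. Types I, II, V and XI form fibrils, type IV forms the network of basement membranes, type VI forms beaded filaments, the FACIT types (IX, XII, XIV and others) sit on fibril surfaces, and types XIII, XXIII and XXV span the cell membrane. Laminins are heterotrimers of an alpha, a beta and a gamma chain and, with type IV collagen, make up the basement membrane. Integrins are alpha and beta heterodimers that hold cells to these proteins. Human embryonic stem cells are known to attach to laminin through ITGA6 with ITGB1, and to make laminins with the LAMA1 or LAMA5 chain joined to LAMB1 and LAMC1.

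The promoters of some members, chosen by hand, are shown first. COL4A1 and COL4A2 among them passed no threshold against WT. Other members that did pass one, such as COL26A1, COL25A1 and LAMB1, have windows that are not printed. A link between promoter letters and changes in level was not tested. Each sequence is the 250 bases before the RefSeq gene start (build GRCh38.p14), written 5′ to 3′ on the strand of the gene. Capitals mark 3 motifs: the GC box (GGGCGG or its complement CCGCCC), the CCAAT box (CCAAT or ATTGG) and the TATA box (TATAAA, gene strand only). COL4A1 and COL4A2 encode the 2 common type IV chains and lie head to head, so that their windows share 126 bases.
COL4A1: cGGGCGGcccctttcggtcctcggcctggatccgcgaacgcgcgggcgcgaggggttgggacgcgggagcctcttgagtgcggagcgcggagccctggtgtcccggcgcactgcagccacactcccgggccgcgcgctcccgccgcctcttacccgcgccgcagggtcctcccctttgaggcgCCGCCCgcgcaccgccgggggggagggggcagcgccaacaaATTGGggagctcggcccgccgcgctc
COL4A2: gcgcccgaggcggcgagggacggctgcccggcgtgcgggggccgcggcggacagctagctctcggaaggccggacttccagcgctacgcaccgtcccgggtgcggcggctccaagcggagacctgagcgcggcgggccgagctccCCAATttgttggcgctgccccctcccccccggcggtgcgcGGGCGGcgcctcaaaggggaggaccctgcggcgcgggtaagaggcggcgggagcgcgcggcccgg
The COL4A1 window spans chr13:110307158-110307407 (minus strand) and the COL4A2 window chr13:110307034-110307283 (plus strand). COL6A2 and COL6A3 encode partners of the type VI trimer and moved in opposite directions in CHD7 knockout cells.
COL6A2: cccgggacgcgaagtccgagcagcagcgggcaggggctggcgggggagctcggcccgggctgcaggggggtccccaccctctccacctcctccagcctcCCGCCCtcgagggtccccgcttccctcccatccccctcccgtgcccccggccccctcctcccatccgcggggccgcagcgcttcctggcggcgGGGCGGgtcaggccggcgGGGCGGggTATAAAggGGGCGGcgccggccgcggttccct
COL6A3: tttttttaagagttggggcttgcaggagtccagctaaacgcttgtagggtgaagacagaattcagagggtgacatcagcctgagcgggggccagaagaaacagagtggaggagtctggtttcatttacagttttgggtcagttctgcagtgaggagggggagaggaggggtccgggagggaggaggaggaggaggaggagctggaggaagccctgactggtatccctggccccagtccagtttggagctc
The COL6A2 window spans chr21:46097862-46098111 (plus strand) and holds 4 GC boxes and 1 TATA box. The COL6A3 window spans chr2:237414165-237414414 (minus strand) and holds none of the 3 motifs. COL12A1 was the other collagen past the stricter threshold in CHD7 knockout cells, and LAMC1 was the laminin chain that rose there.
COL12A1: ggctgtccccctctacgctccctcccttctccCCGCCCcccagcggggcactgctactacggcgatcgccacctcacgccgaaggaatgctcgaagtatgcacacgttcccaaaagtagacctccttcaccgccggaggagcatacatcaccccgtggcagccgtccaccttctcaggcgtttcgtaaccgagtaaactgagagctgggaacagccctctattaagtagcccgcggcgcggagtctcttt
LAMC1: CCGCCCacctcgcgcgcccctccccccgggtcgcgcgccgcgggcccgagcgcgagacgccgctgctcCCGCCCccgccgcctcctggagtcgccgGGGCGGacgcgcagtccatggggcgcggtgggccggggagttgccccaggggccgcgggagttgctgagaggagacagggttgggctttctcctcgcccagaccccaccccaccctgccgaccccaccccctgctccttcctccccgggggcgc
The COL12A1 window spans chr6:75206054-75206303 (minus strand) with 1 GC box, and the LAMC1 window spans chr1:183023170-183023419 (plus strand) with 3. The table held windows for 58 of the 82 members, 77 windows in all because some genes have more than 1 start. A GC box was in 41 of these windows, a CCAAT box in 17 and a TATA box in 7, beside 42.6%, 32.0% and 6.8% of the 35116 windows of all genes. A match is a description of the letters only.

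The libraries held 14802049 to 23156445 reads on genes. CHD7 itself, the gene targeted in the knockout, stood at 651 and 649.5 CPM (reads on the gene scaled to library size with TMM factors) in WT and at 197 CPM in both CHD7 knockout libraries. HERVH knockdown replicate 2 stood apart, with 8.87% of its reads on its 10 most counted genes against 4.09% to 5.08% elsewhere. In CHD7 knockout cells the genes of the long arm of chromosome 1 were raised together, by a median log2 of 0.53 in replicate 1 and 0.48 in replicate 2 over 556 genes. The 8 pluripotency markers summed to 5638 to 6859 CPM in every library, and POU5F1 and LIN28A were high throughout. The fibroblast and mesenchyme markers LUM and DCN had at most 3 reads in any library, the floor used for detection, and so did GATA4, GATA6, CGA, CGB5 and HBG1. Other markers on the same lists had more reads. The 5 endoderm markers summed to 2.12 to 5.80 CPM in WT, 1.56 to 2.17 in CHD7 knockout, 12.0 to 12.2 in HERVH knockdown and 5.34 to 5.93 in HERVH element deleted cells. Of these, FOXA2 stood at 1.39 and 4.96 CPM in WT and 10.3 and 9.69 CPM in HERVH knockdown cells, and AFP at 0.554 and 0.655 CPM against 1.81 and 2.11 CPM. Among the 3 endothelium markers measured, TEK stood at 26.3 and 27.5 CPM in WT and 2.73 and 2.58 CPM in CHD7 knockout cells, while KDR stood at 182 and 135 CPM against 256 and 223 CPM. The part of these markers in the results on the members was not tested. The 8 fibroblast and mesenchyme markers summed to 264 to 383 CPM in WT, 243 to 288 in CHD7 knockout, 237 to 280.4 in HERVH knockdown and 239.9 to 299 in HERVH element deleted cells, most of it THY1, which stem cells also express.

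In WT cells, 45 of the 82 members exceeded 1 RPKM (CPM per kilobase of exon) in both libraries, that is 54.9% of members beside 57.2% of all protein-coding genes. Among collagens, the highest level per length was that of COL6A1 at 50.3 ± 3.78 RPKM (SD, n = 2, as for the levels that follow), next to COL18A1, a basement membrane collagen and the source of endostatin, at 48.1 ± 3.13. These neighbours overlapped between libraries. COL6A2 stood at 32.3 ± 4.70 and COL26A1 at 29.2 ± 3.80 RPKM, again overlapping. The third partner of the usual type VI trimer, COL6A3, stood at 0.198 ± 0.00636 RPKM, so that the level per length of COL6A1 was 274 and 236 times that of COL6A3 in the 2 WT libraries.

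The type IV chains fell into a high and a low set in WT. COL4A1 (17.4 ± 1.38 RPKM), COL4A6 (16.6 ± 0.106), COL4A5 (13.6 ± 0.293) and COL4A2 (10.6 ± 0.213) formed the high set. COL4A3 (0.248 ± 0.0111) and COL4A4 (0.389 ± 0.0243), the pair best known from the kidney glomerulus, formed the low set. The FACIT chain COL9A3 was at 17.1 ± 1.49 RPKM. Both chains of fibril-forming type I were present, COL1A2 at 11 ± 0.791 and COL1A1 at 8.39 ± 1.27 RPKM, whereas COL3A1, the fibril chain of soft tissues, had too few reads to test. The collagens left, apart from those named, ranged from 0.00422 RPKM for COL19A1 to 7.01 RPKM for COL14A1.

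Laminin levels in WT were led by the shared gamma chain LAMC1 at 42.6 ± 5.02 RPKM. The alpha chains LAMA5 (20.9 ± 4.14) and LAMA1 (17.7 ± 0.418) were above the beta chains LAMB2 (11.4 ± 0.677) and LAMB1 (11 ± 0.311), whose libraries overlapped. LAMA5, at 18 and 23.9 RPKM, and LAMA1, at 17.4 and 18 RPKM, were not separated beyond the spread of LAMA5. LAMC3 was at 4.51 ± 1.12 RPKM, LAMB3, LAMA2, LAMA3 and LAMA4 lay between 0.0735 and 0.445 RPKM, and LAMB4 had no read in any of the 8 libraries.

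Among integrin alpha subunits, ITGA6, the laminin receptor chain of stem cells, stood alone at 34.7 ± 4.3 RPKM. It was followed by ITGA7 (7.02 ± 1.53), another laminin receptor chain, ITGA5 (5.53 ± 0.827), the fibronectin receptor chain, ITGAV (4.55 ± 0.508), which pairs with several beta chains, ITGA3 (2.86 ± 0.41), a laminin receptor chain, and ITGA2 (1.95 ± 0.199), a collagen receptor chain. The libraries of ITGA7 and ITGA5 overlapped. Of the beta subunits, ITGB5 (30.1 ± 3.04 RPKM), a partner of ITGAV, and ITGB1 (22.4 ± 4.37), the partner of most alpha chains, were high, while ITGB8 (0.984 ± 0.0605) and ITGB4 (0.932 ± 0.0521), the partner of ITGA6 in hemidesmosomes, were near 1 RPKM. Of the integrin genes of leukocytes, ITGAL, ITGAX, ITGAD and ITGB2 were too low to test. Others were tested, at 1.77 and 1.68 RPKM in WT for ITGAE and 0.68 and 0.641 for ITGA4. ITGB7 stood at 0.467 and 0.546 RPKM and ITGAM at 0.252 and 0.0822. The genes COL18A1, ITGA4 and ITGB7 share 18.5%, 26.4% and 42.3% of their exon length with a gene on the opposite strand, and since the strand setting of the counting is not given in the sources used here, their levels may include reads of that neighbour.

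**Figure D1:**
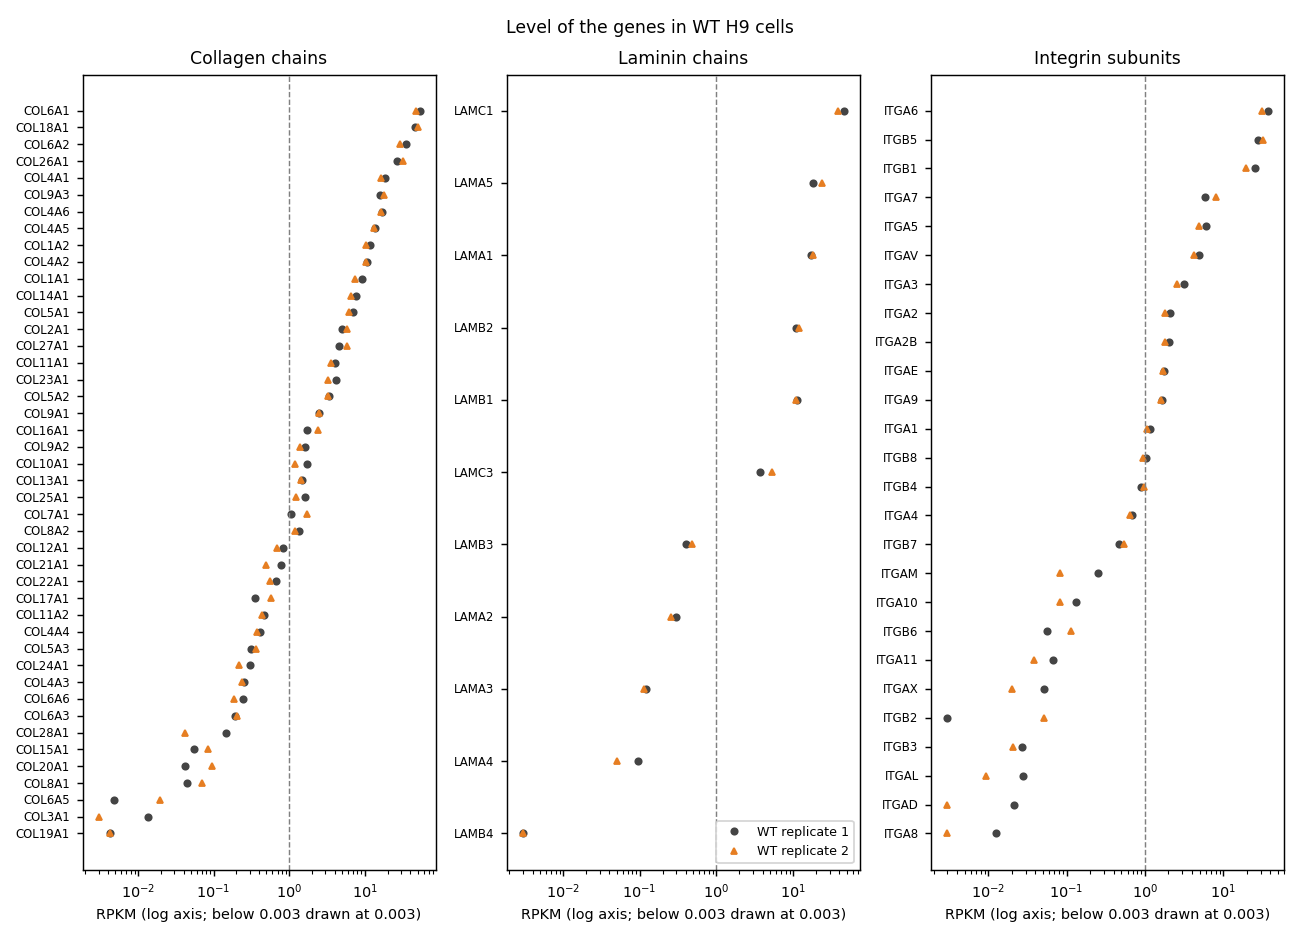
Level of the members in the 2 WT libraries, in RPKM on a log axis, ordered within collagens, laminins and integrins, with the dashed line at 1 RPKM. COL6A1, COL18A1, LAMC1, ITGA6, ITGB5 and ITGB1 head their lists.

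The comparison of CHD7 knockout with WT cells asks which members differ in level between these lines. With the study's rule for differentially expressed genes (DEGs, FDR below 0.01 and at least a 2-fold change in edgeR's quasi-likelihood test), 1 member rose, COL6A3, and 1 fell, COL12A1. That is 2.78% of the 72 members tested, beside 0.571% of all 23474 genes. At FDR below 0.05 with no fold limit, LAMC1 rose as well and COL26A1, COL6A2 and COL6A1 fell, 8.33% of members beside 1.81% of all genes. The median log2 fold change was -0.16 over the 72 members and -0.01 over all genes tested. By family, 25 of 41 collagens, 5 of 11 laminins, 8 of 14 integrin alpha and 4 of 6 integrin beta genes had lower fitted values than WT. Over all genes tested, 12095 of 23474 did.

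The 3 type VI chains did not move together in CHD7 knockout cells. COL6A3 (chromosome 2, 238232646-238322971 on hg19) stood at 4.16 and 4.35 CPM in WT and at 13.5 and 22.5 CPM in CHD7 knockout cells. Both knockout libraries lay above both WT libraries, and the replicates of the knockout differed from each other more than those of WT. The fitted log2 change was 2.08 ± 0.34 (SE, as for the fitted log2 values that follow), with FDR = 0.00546 by edgeR. COL6A1 (chromosome 21, 47401684-47424964) went from 293 and 264 CPM in WT to 151 and 169.9 CPM, a log2 fold change of -0.80 ± 0.18 with FDR = 0.0359 by edgeR. Its neighbour on the chromosome, COL6A2 (47518026-47552762), went from 189.9 and 154 CPM to 80.9 and 100.9 CPM, a log2 fold change of -0.92 ± 0.20 with FDR = 0.0328 by edgeR. The ratio of COL6A1 to COL6A3 per length was 43.2 and 29.4 in the knockout libraries, against 274 and 236 in WT.

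COL12A1, a FACIT collagen (chromosome 6, 75794042-75915983), had 15.5 and 13.2 CPM in WT and 5.04 and 5.81 CPM in CHD7 knockout cells. The groups did not overlap, and the log2 fold change was -1.40 ± 0.23 with FDR = 0.00688 by edgeR. COL26A1 (chromosome 7, 101006156-101202304), among the 4 highest collagens of WT cells, went from 82.2 and 98.9 CPM to 29.2 and 26.1 CPM. Its log2 fold change of -1.71 ± 0.31 was larger than that of COL12A1, and its FDR of 0.0128 by edgeR lay just outside the DEG threshold.

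LAMC1 (chromosome 1, 182992555-183114727) had 390.0 and 330.0 CPM in WT and 649.5 and 642 CPM in CHD7 knockout cells, which gave a log2 change of 0.84 ± 0.14 with FDR = 0.00821 by edgeR. It lies in the raised stretch of chromosome 1: over the 50 nearest tested genes the median log2 change was 0.61, which leaves 0.24 for LAMC1 once subtracted. The part of this stretch in the result was not tested further. LAMB3 and ITGA10 lie on the same arm. LAMB3, a beta chain of the epithelial laminin, showed a log2 difference of 0.52 ± 0.34 and ITGA10, with few reads, -1.16 ± 0.69, neither past the test. The partners of LAMC1 had log2 fold changes of -0.25 ± 0.16 (LAMA1), -0.24 ± 0.29 (LAMA5) and -0.21 ± 0.14 (LAMB1), none past the test.

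Of the type IV chains, COL4A1, COL4A2 and COL4A6 were lower in both CHD7 knockout libraries than in either WT library. COL4A1 stood at 269 and 240.5 CPM in WT and 163 and 154 CPM in the knockout, and COL4A2 at 207 and 201 CPM against 137 and 131 CPM. COL4A6 stood at 155 and 153 CPM against 94.2 and 94.1 CPM. Their log2 fold changes of -0.69 ± 0.20, -0.60 ± 0.17 and -0.71 ± 0.17 missed the threshold, with FDR of 0.111, 0.105 and 0.059 by edgeR. COL4A5, which lies head to head with COL4A6, showed 0.06 ± 0.19, and its ratio to COL4A6 per length was 1.26 and 1.53 in the knockout against 0.829 and 0.811 in WT. COL4A1 and COL4A2, whose promoter windows overlap as shown above, had a ratio of 1.56 and 1.54 against 1.71 and 1.57 in WT. The window of COL4A5 (chrX:108439588-108439837) overlaps 1 window of COL4A6 (chrX:108439459-108439708) as well. So does the window of COL4A3 (chr2:227164374-227164623) with that of COL4A4 (chr2:227164206-227164455). The ratio of COL4A3 to COL4A4 was 0.313 and 0.313 in the knockout against 0.629 and 0.645 in WT. It rests on few reads, for COL4A3 28 and 39 in the knockout and 68 and 63 in WT. Overlapping windows are thus found in all these pairs, and their part in the ratios was not tested. COL13A1, a membrane-spanning collagen, was also lower, at 10.4 and 8.61 CPM against 16.9 and 16.3 CPM, with a log2 difference of -0.81 ± 0.21 (FDR = 0.0823 by edgeR). The type I chains differed by 0.68 ± 0.33 (COL1A1) and 0.08 ± 0.29 (COL1A2), neither past the test.

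The DEG calls among these members depended on all 4 libraries. Leaving out any 1 of them left no DEG among the members, and the FDR then ranged from 0.0269 to 0.112 for COL6A3, from 0.0415 to 0.151 for COL12A1, from 0.0551 to 0.179 for LAMC1 and from 0.0746 to 0.407 for COL26A1, COL6A1 and COL6A2 by edgeR. The fold changes kept their direction, with 1.69 to 2.40 for COL6A3 and -1.50 to -1.28 for COL12A1. In a fit of only the 4 libraries compared, the FDR of these members was lower. It ranged from 6.82e-09 for COL26A1 to 0.000116 for COL12A1 by edgeR.

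**Figure D2:**
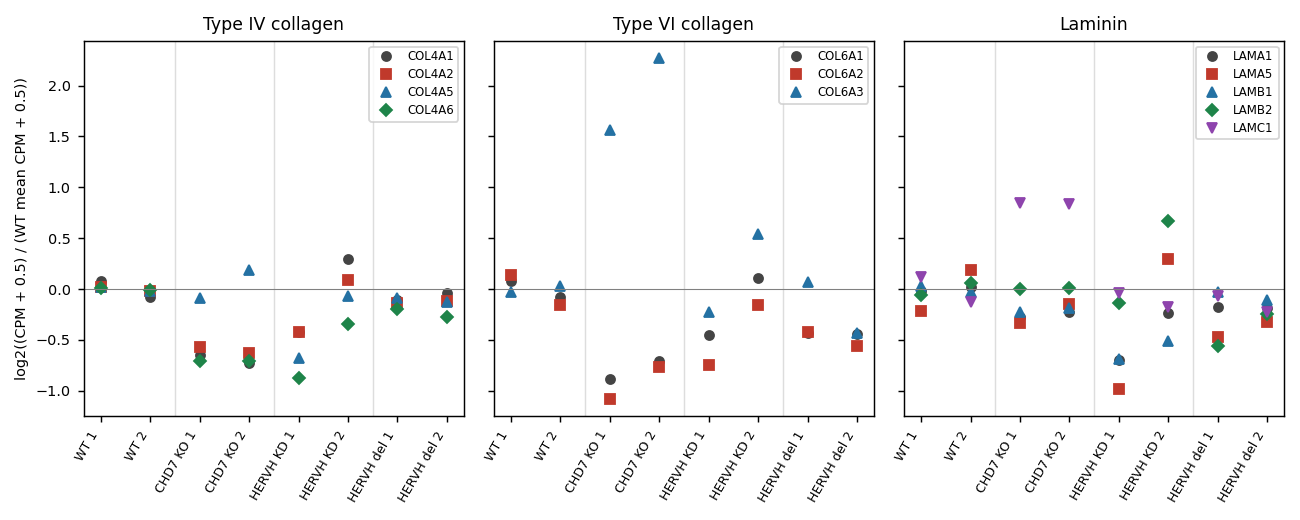
Chains that assemble together, as log2 of CPM plus 0.5 over the WT mean plus 0.5, for each of the 8 libraries (points are single libraries; KO, knockout; KD, knockdown; del, element deleted). In CHD7 knockout cells COL6A3 lies above 0 and COL6A1 and COL6A2 below it, COL4A5 stays near 0 while the other type IV chains drawn lie below, and LAMC1 lies above its partners.

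The comparison of HERVH knockdown with WT cells asks which members change 24 h after the HERVH RNAs are targeted. Under the DEG rule 1 member fell, COL25A1, and none rose, 1.39% of the 72 members beside 0.217% of all genes. At FDR below 0.05, COL8A1 and ITGA3 rose and COL25A1, ITGA2B and LAMB1 fell, 6.94% of members beside 2.15% of all genes. For the count of 0 that rose under the DEG rule, 1 member (COL8A1) rose by DESeq2. An unadjusted p below 0.05 by edgeR, in either direction, was found for 23 members, 31.9% beside 19.0% of all genes. The median log2 fold change was -0.03 over the members and 0.04 over all genes. Fitted values were lower than WT for 24 of 41 collagens, 5 of 11 laminins, 10 of 14 integrin alpha and 2 of 6 integrin beta genes. Over all genes tested, this held for 11053 of 23474.

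COL25A1, a membrane-spanning collagen of neurons (chromosome 4, 109729881-110223908), had 13.9 and 10.6 CPM in WT and 4.11 and 3.79 CPM in HERVH knockdown cells. The 2 knockdown libraries were close to each other and below both WT libraries, with a log2 fold change of -1.63 ± 0.25 and FDR = 0.00848 by edgeR. COL8A1, a network-forming collagen of vessel walls (chromosome 3, 99357319-99518070), was near its detection limit in WT at 0.416 and 0.655 CPM, that is 9 and 14 reads, and stood at 4.87 and 3.28 CPM in the knockdown. Its log2 fold change was 2.92 ± 0.50, with FDR = 0.0131 by edgeR. In CHD7 knockout cells COL8A1 had 1.62 and 1.29 CPM, which did not pass (FDR = 0.243 by edgeR).

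Integrin alpha chains moved in both directions in HERVH knockdown cells. ITGA3 (chromosome 17, 48133332-48167845) rose from 30.9 and 25.2 CPM to 44.5 and 58.3 CPM, a log2 fold change of 0.87 ± 0.19 with FDR = 0.0357 by edgeR. ITGA2B, the alpha chain of the platelet fibrinogen receptor (chromosome 17, 42449548-42467017), fell from 11.7 and 10.2 CPM to 2.30 and 4.52 CPM, a log2 fold change of -1.70 ± 0.36 with FDR = 0.0282 by edgeR. Its beta partner ITGB3 had too few reads to test in any group. ITGA6 (252 and 211 CPM in WT, 189.8 and 156 CPM in the knockdown) had a log2 difference of -0.42 ± 0.15 with FDR = 0.165 by edgeR, and ITGB1 of -0.01 ± 0.17.

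LAMB1 (chromosome 7, 107564244-107643658) fell from 209 and 201 CPM to 127 and 144 CPM, a log2 fold change of -0.60 ± 0.14 with FDR = 0.0424 by edgeR. Its partner LAMC1 differed by -0.11 ± 0.14, so that the ratio of LAMC1 to LAMB1 per length went from 4.10 and 3.61 in WT to 6.06 and 4.88. LAMA1 (275.5 and 285 CPM against 173 and 238 CPM) had a log2 difference of -0.45 ± 0.16 with FDR = 0.155 by edgeR, and LAMA5 ranged from 151 to 368 CPM between the 2 knockdown libraries.

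COL9A1, a FACIT chain, had 25.4 and 25.8 CPM in WT and 7.34 and 16.0 CPM in the knockdown, a log2 difference of -1.14 ± 0.28 just outside the threshold (FDR = 0.0522 by edgeR). COL1A1 had 83.6 and 67.5 CPM in WT and 93.6 and 269 CPM in the knockdown, a log2 difference of 1.26 ± 0.33 that rests mainly on replicate 2 (FDR = 0.0653 by edgeR). COL4A6 was lower at 83.6 and 121 CPM, a log2 difference of -0.59 ± 0.17 (FDR = 0.0949 by edgeR). COL4A1 and COL4A2 were below WT in knockdown replicate 1 and above it in replicate 2, with fitted differences of -0.02 ± 0.20 and -0.14 ± 0.17.

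The 2 HERVH knockdown libraries differed with the GC content of the members. Among the 28 tested members with a GC content above 55%, 27 were higher in replicate 2 than in replicate 1, by a median log2 of 0.86, and all 5702 tested genes of that class differed by 0.54. Among the 19 members below 45%, 10 were higher in replicate 2, with a median of 0.01, beside -0.26 over all such genes. Collagen genes summed to 1779 CPM in replicate 1 and 3305 CPM in replicate 2, on either side of the 2450 to 2524 CPM of WT. COL18A1, at 307 and 706 CPM, and COL9A3, at 37.3 and 146 CPM, were among those that differed most. The part of this difference in the results was not tested beyond a fit with GC-dependent offsets, in which the 5 members called at FDR below 0.05 passed again.

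**Figure D3:**
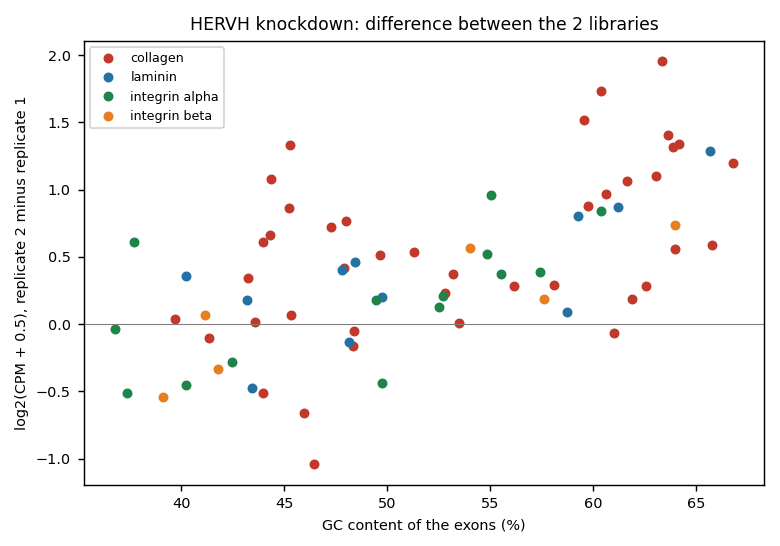
Difference between the 2 HERVH knockdown libraries, in log2 of CPM plus 0.5, against the GC content of the exons, for the 72 tested members coloured by family. Of the 28 members above 55% GC, 27 lie above 0.

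The calls in HERVH knockdown cells depended on the WT libraries and on the spread taken from other groups. Without WT replicate 1 none of the 5 passed FDR below 0.05 (0.172 for COL25A1 and 0.243 to 0.395 for the others by edgeR), and without WT replicate 2 COL25A1 (0.0191) and COL8A1 (0.0476) passed. In a fit of only the 4 libraries compared, the FDR was 0.0602 for COL25A1, 0.0321 for COL8A1 and 0.0729 to 0.239 for the other 3 by edgeR. Without knockdown replicate 1 and without replicate 2, the log2 fold change was -1.72 and -1.57 for COL25A1 and 2.57 and 3.17 for COL8A1. It was -1.30 and -2.25 for ITGA2B, 1.03 and 0.67 for ITGA3 and -0.54 and -0.70 for LAMB1.

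**Figure D4:**
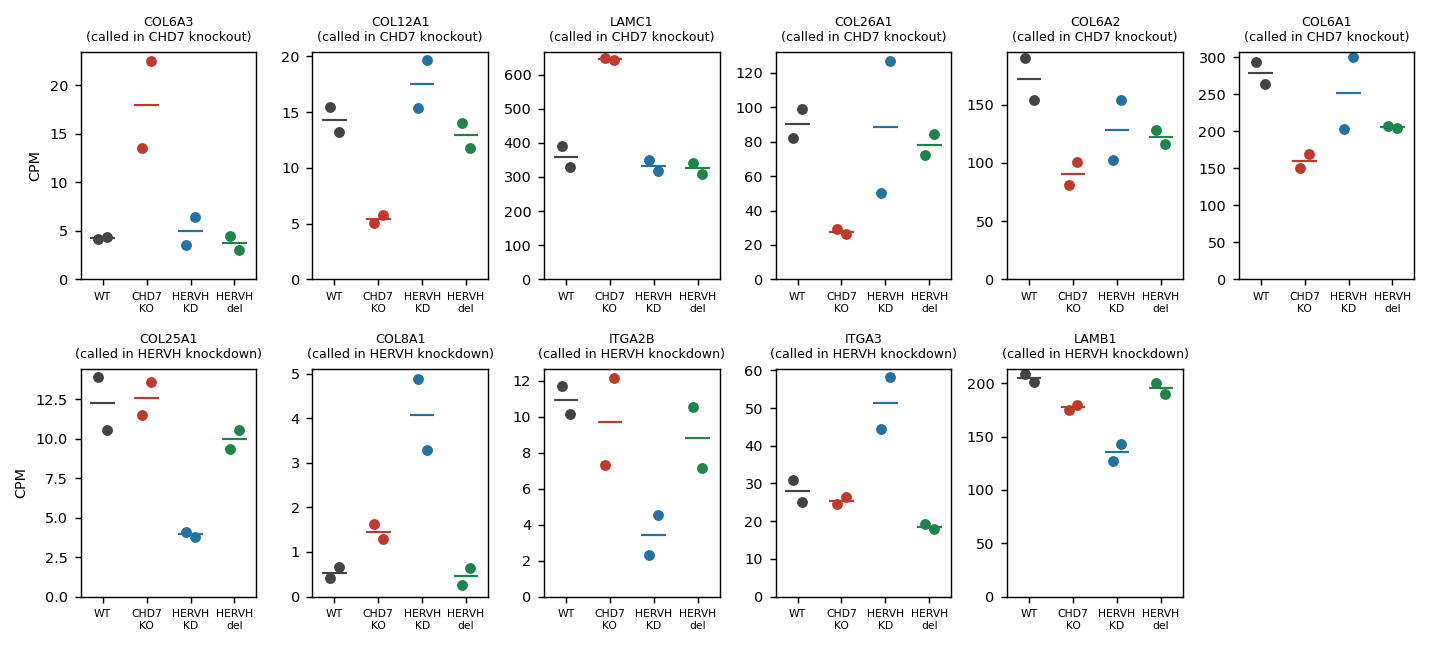
CPM in each library for the 11 members past FDR below 0.05 against WT, with points for the 2 libraries of a group and a line at their mean (KO, knockout; KD, knockdown; del, element deleted; axes start at 0). The upper row holds the 6 members called in CHD7 knockout cells and the lower row the 5 called in HERVH knockdown cells.

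The comparison of HERVH element deleted with WT cells asks which members differ in level between those lines. No member passed in either direction by edgeR, under the DEG rule or at FDR below 0.05, beside 0.0298% and 0.0724% of all genes, and none was called by DESeq2 under the DEG rule. At an unadjusted p below 0.05 there were 6 members, 8.33% beside 2.63% of all genes. Fitted values were lower than WT for 60 of the 72 members, beside 12467 of all 23474 genes tested. The median log2 was -0.16 beside -0.02 over all genes. All members were read in the same libraries, so they are not independent observations. The smallest p-values were those of ITGAM, a leukocyte integrin chain with 1.43 and 0.472 CPM in WT and 0.214 and 0.108 CPM in the deleted cells, ITGA3 and COL6A1. ITGA3 stood at 19.2 and 18 CPM, below both WT libraries, with a log2 difference of -0.60 ± 0.20. COL6A1 stood at 206 and 205 CPM with a difference of -0.44 ± 0.18, and COL6A2 at 128 and 117 CPM with -0.49 ± 0.20. Their FDR values were 1 by edgeR.

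**Figure D5:**
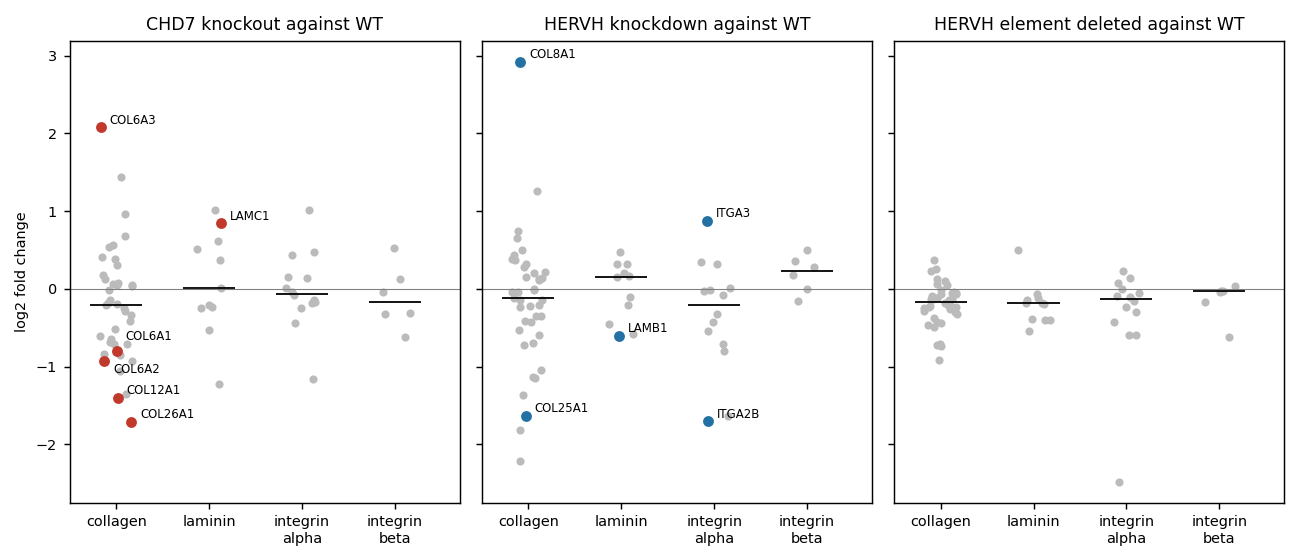
Log2 fold change against WT of the 72 tested members by family in the 3 comparisons, with black lines at the family medians and coloured, named points for FDR below 0.05. The CHD7 knockout panel has 6 named points, the HERVH knockdown panel 5 and the HERVH element deleted panel none.

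Direct comparisons between the altered groups asked where they differ from each other, and they share libraries with the comparisons above. HERVH knockdown against HERVH element deleted cells gave 1 DEG among the members, ITGA3, at 44.5 and 58.3 CPM against 19.2 and 18 CPM (log2 difference 1.47 ± 0.20, FDR = 0.0039 by edgeR), beside 0.204% of all genes. At FDR below 0.05, COL8A1 and COL1A1 were also higher and COL25A1 and COL9A1 lower in the knockdown, beside 1.33% of all genes. CHD7 knockout against HERVH element deleted cells gave 2 DEGs among the members, COL6A3 higher (2.25 ± 0.34) and COL12A1 lower (-1.26 ± 0.23), beside 1.12% of all genes. At FDR below 0.05 there were 7 members, with COL24A1, ITGAM and LAMC1 also higher and COL26A1 and COL13A1 also lower in the knockout, beside 2.66% of all genes.

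HERVH knockdown against CHD7 knockout cells differed in the most members, 6 under the DEG rule, beside 2.66% of all genes, and 25.0% of members passed FDR below 0.05, beside 9.44%. COL12A1 (1.69 ± 0.24), COL26A1 (1.68 ± 0.31) and ITGA3 (1.01 ± 0.19) were higher in the knockdown, and COL24A1 (-2.33 ± 0.43), COL6A3 (-1.87 ± 0.34) and COL25A1 (-1.66 ± 0.25) were lower. COL24A1, a fibril-forming collagen, had 1.04 and 0.874 CPM in the knockdown and 3.37 and 6.40 CPM in the knockout, with WT in between at 2.91 and 2.06 CPM. Of the members past FDR below 0.05 alone, ITGA6 was lower in the knockdown than in the knockout (-0.86 ± 0.16, FDR = 0.00457 by edgeR), while the libraries of its partner ITGB1 overlapped between the groups.

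Calls in the wider set of matrix and adhesion genes stand beside these shares of all genes at FDR below 0.05. The shares were 1.81% in CHD7 knockout, 2.15% in HERVH knockdown and 0.0724% in HERVH element deleted cells. Of 28 tested matrix partners, the genes for other matrix proteins, FN1 (fibronectin, 0.79 ± 0.17) and THBS2 (thrombospondin 2, 0.88 ± 0.20) rose and FBN2 (fibrillin 2) fell in CHD7 knockout cells at FDR below 0.05, and only LTBP1, which holds latent TGF-beta in the matrix, fell in HERVH knockdown cells (-0.95 ± 0.18). FBN2 went from 163 and 172 CPM in WT to 59.9 and 62.9 CPM in CHD7 knockout cells (-1.45 ± 0.16, FDR = 0.00034 by edgeR), the 1 DEG of that list. Among the matrix proteases and their inhibitors, TIMP4, an inhibitor of metalloproteinases, rose in HERVH knockdown cells, from 6.88 and 6.83 CPM to 19.7 and 11.4 CPM (1.19 ± 0.28, FDR = 0.0476 by edgeR). Of 30 tested integrin adhesion genes, PXN (paxillin, 0.96 ± 0.16) and ZYX (zyxin, 0.72 ± 0.16), which sit at focal adhesions, rose in HERVH knockdown cells, with a list median of 0.21 beside 0.04 over all genes. None of the 30 collagen processing genes and none of the 10 other laminin and collagen receptors passed FDR below 0.05 by edgeR in any of the 3 comparisons with WT, where 7, 7 and 0 of the former and 1, 2 and 0 of the latter had an unadjusted p below 0.05 in the CHD7 knockout, the knockdown and the element deleted cells, in that order. Over all genes, 10.9%, 19.0% and 2.63% had an unadjusted p below 0.05, in the same order. No gene of the 5 lists passed in HERVH element deleted cells.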

How the data were processed

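Strand-specific RNA-seq after rRNA removal was made in 8 libraries, 2 for each of 4 groups taken from the sample titles. Per the study's methods the authors aligned reads with STAR to hg19 and deposited read counts per Ensembl gene made with HTSeq; versions and the strand setting are not given in the sources used here. Rows naming no gene (34.9% to 42.5% of the counted reads for no feature and 3.81% to 4.75% for ambiguous ones) were left out. The deposited counts of 57773 genes were tested with edgeR 4.0.16 (R 4.3.3): filterByExpr, TMM scaling, 1 quasi-likelihood fit over all 8 libraries (4 residual degrees of freedom), FDR adjusted over all 23474 genes tested. DEGs had FDR below 0.01 and at least a 2-fold change, the rule of the study's methods. The SE of a fitted log2 value was derived from the test, as its absolute size divided by the square root of the quasi-likelihood F statistic. Positions and exon lengths came from GENCODE v44 lifted to GRCh37, which placed 55538 genes, not from the annotation used for counting. CPM are TMM-scaled, and RPKM divide them by that exon length. Log2 values per library had a pseudocount of 0.5 CPM.

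Members named with values were those with the highest WT RPKM in each family, those past FDR below 0.05 against WT in any comparison, the 3 next by p in each comparison, and the partner chains of types I, IV and VI and of laminins with LAMA1 or LAMA5; genes of the 5 wider lists were named where past FDR below 0.05, and not every gene is reported here. COL24A1, COL19A1, COL14A1, LAMB3, ITGA10 and other members outside this rule were named after their values were seen. The members and lists were chosen with earlier results of these data known. In a simulation of the HERVH knockdown comparison, 192 of 200 genes changed 4-fold were called, with 1 false call among 22167 genes. The changed genes were drawn only from genes above a minimum expected number of reads. Recovery of genes with few reads was therefore not tested, nor was recovery of smaller changes. These counts are therefore no measure of either, nor of the effect of the GC-dependent difference between the HERVH knockdown libraries. Alternatives were RLE scaling, DESeq2 1.42.0, edgeR's exact test, other filters, a fit of the 4 libraries compared, GC-dependent loess offsets, the replicate number as a block, the chromosomal neighbours subtracted, and leaving out each library.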

Additional observations from a re-analysis of the deposited data

How the results depend on the processing

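With 2 libraries a group, the number of members called is limited by the spread between libraries, and genes at a few CPM, such as COL8A1, are limited by depth; a member that missed a threshold is not shown to be unchanged. The count of members above 1 RPKM in WT, 45, stayed at 45 or 46 with a WT library left out, and moved by less than 1.5 times under TPM, coding length and unscaled totals. For CHD7 knockout against WT, the 1 member higher became 2 at FDR below 0.05 with no fold limit, and the 1 lower became 2 with RLE scaling, DESeq2 or the exact test, 3 with only the 4 libraries, no filter or GC offsets, and 4 at FDR below 0.05; leaving out a library gave 0 of each. For HERVH knockdown against WT, the 0 higher became 1 with RLE scaling, DESeq2 or GC offsets and 2 with the exact test, no filter or FDR below 0.05, and 0 to 5 with a library left out. The 1 lower became 3 with DESeq2, the exact test, no filter or FDR below 0.05, 4 with GC offsets, and 0 with only the 4 libraries or the filter of 1 CPM in 2 libraries, and 0 to 5 with a library left out. The counts of 0 for HERVH element deleted against WT stayed at 0 in all alternatives run. For knockdown against element deleted cells, the 1 higher became 2 (RLE scaling, DESeq2), 3 (exact test, no filter, GC offsets, FDR below 0.05) or 0 (only the 4 libraries), and 0 to 10 with a library left out; the 0 lower became 3 (DESeq2, no filter) or 2 (exact test, GC offsets, FDR below 0.05), and 0 to 2 with a library left out. For CHD7 knockout against element deleted cells, the 1 higher became 2 (DESeq2), 3 (exact test, GC offsets) or 4 (only the 4 libraries, no filter, FDR below 0.05), and 0 to 1 with a library left out; the 1 lower became 2 (DESeq2) or 3 (exact test, only the 4 libraries, no filter, GC offsets, FDR below 0.05), and 0 with a library left out. For knockdown against CHD7 knockout cells, the 3 higher became 1 (only the 4 libraries) or 8 (FDR below 0.05), and 0 to 11 with a library left out; the 3 lower became 5 (DESeq2, GC offsets), 6 (exact test, no filter), 1 (only the 4 libraries) or 10 (FDR below 0.05), and 0 to 7 with a library left out. Where a library was left out, the lone library of that group was assumed to vary like the other groups. The causes were not tested.

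The libraries share only a replicate number, with no label that pairs them. Deviations of same-numbered libraries correlated at 0.29 (WT and HERVH knockdown), 0.43 (WT and element deleted), 0.30 (knockdown and element deleted), -0.23 (WT and CHD7 knockout), -0.12 (CHD7 knockout and knockdown) and -0.23 (CHD7 knockout and element deleted) over 12704 genes. With the replicate number as a block, 1 member was higher and 2 were lower in CHD7 knockout than WT, and the other counts did not change; with the CHD7 knockout numbers crossed, an alternative chosen after seeing the data, 1 was higher and 2 were lower.

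The 11 members called against WT kept their direction in every alternative, and for LAMC1 in CHD7 knockout cells the neighbours' median lowered the log2 fold change from 0.84 to 0.24. Sign changes occurred only for members not called. With GC offsets the log2 fold change was -0.0021 for COL1A2, -0.032 for COL25A1 and -0.0101 for COL4A5 in CHD7 knockout cells, -0.071 for COL18A1, -0.25 for COL9A3 and 0.087 for ITGAV in HERVH knockdown cells and -0.052 for ITGB1 in element deleted cells. COL9A3 in the knockdown was -0.0055 with the block. ITGA6 in element deleted cells was 0.0065 with RLE scaling and with DESeq2, 0.0042 with only the 4 libraries, 0.0038 with no filter and 0.0104 with the filter of 1 CPM. With a library left out, the members whose sign turned ranged as follows. In CHD7 knockout cells these were COL25A1 (-0.14 to 0.25), COL4A4 (-0.19 to 0.49), COL4A5 (-0.063 to 0.19), ITGA2B (-0.56 to 0.15), ITGA3 (-0.27 to 0.015), ITGA5 (-0.18 to 0.12), ITGA7 (-0.38 to 0.072), ITGB1 (-0.052 to 0.34) and LAMB2 (-0.053 to 0.077). In HERVH knockdown cells these were COL18A1 (-0.40 to 0.77), COL1A2 (-0.61 to 0.70), COL26A1 (-0.86 to 0.46), COL4A1 (-0.42 to 0.27), COL4A2 (-0.42 to 0.064), COL4A3 (-0.71 to 0.11), COL6A1 (-0.45 to 0.076), COL6A3 (-0.26 to 0.56), COL9A3 (-1.15 to 0.79), ITGA7 (-0.57 to 0.37), ITGAM (-0.69 to 0.93), ITGAV (-0.15 to 0.098), ITGB1 (-0.21 to 0.21), ITGB5 (-0.027 to 0.51), ITGB8 (-0.16 to 0.43), LAMA5 (-0.99 to 0.27), LAMB2 (-0.14 to 0.64) and LAMC1 (-0.24 to 0.016). In element deleted cells these were COL13A1 (-0.033 to 0.17), COL4A1 (-0.14 to 0.012), COL4A3 (-0.36 to 0.20), COL6A3 (-0.49 to 0.091), COL8A1 (-1.03 to 0.27), ITGA6 (-0.12 to 0.13), ITGA7 (-0.44 to 0.018), ITGAV (-0.20 to 0.025), ITGB1 (-0.14 to 0.25) and ITGB8 (-0.19 to 0.13).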
